A study of Bos taurus with 17 samples.

Results

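Integrins, cadherins and the proteins of focal adhesions are the receptors and adaptors by which cells hold on to matrix and to each other. Genes of these families were taken by symbol from the deposited table. The families were chosen with earlier results of these data known. The rule took integrin α and β chains, cadherins with a CDH number, protocadherins, and 14 focal adhesion genes by name (TLN1, TLN2, VCL, PXN, ZYX, PARVA, ILK, FERMT2, NEDD9, BCAR1, PTK2, TNS1, TNS3 and LPP). It found 45 genes among the 12894 in the table, which were 11 integrin α chains, 6 integrin β chains, 8 cadherins, 6 protocadherins and the 14 focal adhesion genes.

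The cells were primary bovine mesenchymal stem cells from umbilical cord, studied for cultivated meat, and RNA was counted by MARS-seq, which reads the 3′ ends of polyadenylated transcripts. The smart scaffold group (3 libraries, day 21) grew on cellulose scaffold to which the growth factors of the myogenic medium had been attached, and its medium held none of them. The media scaffold group (4 libraries, day 21) grew on cellulose scaffold in the full myogenic medium, which combined low serum, ITS, BSA, dexamethasone, ascorbic acid 2 phosphate, vascular endothelial growth factor, insulin-like growth factor and fibroblast-like growth factor. The plastic plate groups were sampled at day 0, which was 1 day after seeding and before the myogenic medium (3 libraries), at day 3 of that medium (3 libraries) and at day 21 of it (2 libraries). Scaffold cells of day 0 were not analysed here, so substrate and culture time could not be separated in comparisons of scaffolds with day 0 plastic. Libraries of a group are described by the submitters as biological replicates, with no statement on whether they came from separate animals. P-values therefore measure the spread between these libraries. That spread was pooled over all 5 groups, so day 21 plastic, with 2 libraries, shares the spread of the other groups.

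Libraries held 4315324 to 8258530 reads on the smart scaffold and 7397661 to 8975051 on the media scaffold. Plastic libraries held 8952711 to 15483745 reads at day 0, 3118284 to 8629658 at day 3 and 2197356 to 5264578 at day 21. All 10 markers of mesenchymal stromal cells looked up were present in every group. Of 10 epithelial markers, KRT19 and CDH1 were in the table, and their sum stayed between 0 and 6.93 normalised reads in every library. Of 10 endothelial markers 4 were in the table, with sums of 30.4 to 89.3. The sum of 8 smooth muscle or pericyte markers was 82860 to 95810 on the smart scaffold, 67500 to 81070 on the media scaffold, and on plastic 34790 to 39240 at day 0, 19280 to 22520 at day 3 and 88470 to 95090 at day 21. The summed stromal markers were 334300 to 391600 on the smart scaffold, 368700 to 379800 on the media scaffold, and on plastic 122600 to 134600 at day 0, 125100 to 133900 at day 3 and 168000 to 191300 at day 21. Most of that sum was COL1A1 and VIM, with means of 235500 and 99340 on the smart scaffold and 46340 and 77030 at day 0. CD44, ENG and NT5E had lower means on the smart scaffold than at day 0, and the other stromal markers higher ones. Of 10 skeletal muscle markers 4 were in the table, and their sum was 10690 to 11310 on the smart scaffold, 10860 to 12150 on the media scaffold, and on plastic 945 to 1033 at day 0, 880.1 to 1726 at day 3 and 11920 to 14390 at day 21, nearly all of it DES, which the smooth muscle list also holds. The part of these shifts in the changes below was not tested. In such bulk samples fewer cells of a type and less RNA per cell cannot be told apart.

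An integrin is a pair of 1 α and 1 β chain that spans the membrane. Outside the cell the pair binds collagens, laminins or proteins with an RGD sequence such as fibronectin and vitronectin. Inside, talin and kindlin bind the β tail and switch the receptor on, vinculin, parvin and tensin tie it to actin, and focal adhesion kinase with the Cas scaffold proteins passes on the signal. Cadherins bind cadherins on the neighbouring cell and are held to actin by catenins. Mesenchymal cells are known for N-cadherin (CDH2) and OB-cadherin (CDH11), and skeletal muscle cells for a laminin receptor with the α7 chain.

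Of the 45 genes, 42 had a mean of at least 5 normalised reads over the 15 libraries and were tested among 10960 genes in all. The 3 left out were CDH1 (E-cadherin, the epithelial cadherin), which stayed between 0 and 5.97 normalised reads, CDH26 and the clustered protocadherin PCDHAC2. ITGA11 and CDH17 reached the minimum through the group in which they were highest, so a difference for them was built into the filter. Calls needed both an adjusted p under 0.05 (limma, Benjamini-Hochberg) and a change of 1 or more on the log2 scale, and "rose" and "fell" are used for called genes.

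On plastic, 17 of the 42 rose and 11 fell at day 21 against day 0, where 21.2% of all tested genes were called higher and 24.1% lower. Those counts are 40.5% and 26.2% of the genes tested here, and both directions together make 66.7% against 45.2% of all genes. The libraries of the 2 times did not overlap for 33 of the 42 (79.7% of all genes). At day 3 against day 0, 6 rose and 3 fell (6.27% and 3.73% of all genes, 10% either way), with no overlap of libraries for 19 (44.3% of all genes). ITGA10, ITGA7, ITGB5, ITGB7, TLN2 and TNS1 rose, and ITGAE, ITGB8 and PCDH1 fell. Only 1 fall was called without replicate 1, 2 or 3 of day 0 or replicate 1 of day 3. At day 21 against day 3, 14 rose and 8 fell (15.5% and 19.4% of all genes, 34.9% either way), with no overlap for 28 (65.4% of all genes). Rescaling every library to the same total changed that last split to 9 higher and 12 lower, and their median log2 difference to -0.08, where it was 0.27 on the deposited scale. The rescaling moved the median of all genes by -0.33 in that comparison. It changed the calls over all genes from 1700 higher and 2124 lower to 1139 and 3071.

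At day 21 the smart scaffold had 11 of the 42 higher than plastic and 8 lower (21.4% and 16% of all genes, 37.5% either way). The media scaffold had 12 higher and 6 lower (20.8% and 14.6% of all genes, 35.4% either way). Libraries did not overlap for 34 and 32 of the 42 (73.1% and 71.2% of all genes). These comparisons use the same 2 plastic libraries and are given side by side without a test of their likeness. Against plastic of day 0, 17 rose and 2 fell on the smart scaffold (16.5% and 14.1% of all genes, 30.6% either way), and 14 rose and 2 fell on the media scaffold (17.5% and 14.9% of all genes, 32.4% either way). Libraries did not overlap for 33 and 32 (72.9% and 72.4% of all genes). The 2 that fell in each were ITGA3 and CDH2. Rescaling to the same total gave 11 higher and 5 lower on the smart scaffold and 10 higher and 4 lower on the media scaffold, with shifts of -0.23 and -0.25 in the median of all genes. Over all genes it changed the smart scaffold calls from 1808 higher and 1546 lower to 1409 and 2172. Those on the media scaffold changed from 1913 and 1635 to 1481 and 2289. Without smart scaffold replicate 2, 4 genes were lower on the smart scaffold than at day 0. Between smart and media scaffold 0 genes were called in either direction (0.073% and 0.83% of all genes, 0.903% either way), with no overlap of libraries for 14 (20.4% of all genes).

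By group mean, 14 of the 42 were highest on the smart scaffold (33.3%, against 16.8% of all genes), and 3 on the media scaffold (7.14%, against 13.5%). On plastic 2 were highest at day 0 (4.76%, against 25.4%), 9 at day 3 (21.4%, against 13.1%) and 14 at day 21 (33.3%, against 31.1%). A highest mean can be a near tie between the scaffolds. PARVA had means of 2389 (smart) and 2387 (media), and ITGB5 had 9267 and 9215. None of the 42 was called between the scaffolds. ITGA11 counts for the smart scaffold and CDH17 for day 21 plastic, the groups through which they passed the minimum mean. The heat map gives the values of all 42 by library.

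**Figure D1:**
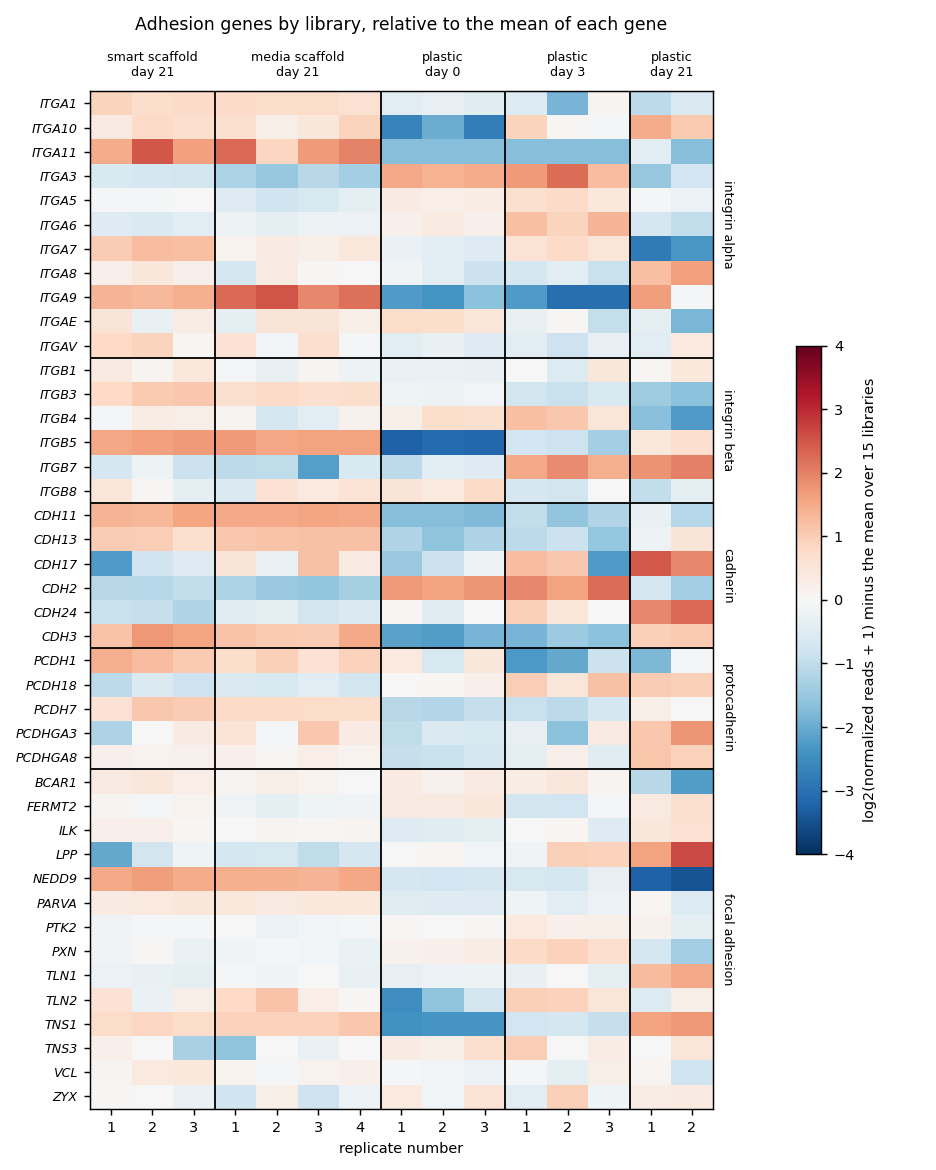
Heat map of the tested genes (rows, grouped by family) in the 15 libraries (columns, smart and media scaffold at day 21 first, then plastic at day 0, day 3 and day 21); colour is log2(normalised reads + 1) minus the gene's mean over the libraries. NEDD9 and ITGA7 stand out as low in both day 21 plastic libraries, and TLN1 and CDH24 as high there. NEDD9 is highest in the 7 scaffold libraries. ITGA7 on the media scaffold is below day 3 plastic, and TLN1 on the scaffolds overlaps the earlier plastic libraries.

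Among the genes tested here, ITGA1, ITGA10 and ITGA11 are α chains of collagen-binding integrins, each paired with β1. ITGA10, best known from cartilage, had 10.6, 17.6 and 9.87 normalised reads on plastic at day 0, 135, 74.5 and 69.6 at day 3, and 204 and 151 at day 21. Its 3 groups on plastic did not overlap between day 0 and either later time. It rose by 2.76 ± 0.26 on the log2 scale (SE, adjusted p = 4.83e-07, limma) at day 3 and by 3.74 at day 21, both against day 0. On the scaffolds it overlapped day 3, at 94.1 to 125 on the smart and 85.6 to 137 on the media scaffold, and was above day 0 in every library (log2 fold changes 3.08 and 3.03).

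ITGA11 is the receptor for fibrillar collagen on fibroblasts. It had 8.25, 17.4 and 9.2 normalised reads on the smart scaffold and 14.8, 4.97, 9.72 and 11.9 on the media scaffold. On plastic it had 0 reads in all 6 libraries of day 0 and day 3, and 1 read in 1 of the 2 libraries of day 21. Its pooled scaffold reads, scaled for depth, were 24.4 times (smart) and 20.4 times (media) a floor of 3 reads over the day 0 group. These ratios leave out the spread between libraries. ITGA11 passed the minimum mean through its highest group, the smart scaffold, so an excess there was built into the filter. Against day 21 plastic the ratio was 12.8 on the smart scaffold (95% counting interval 2.13 to 519) and 10.7 on the media scaffold (1.82 to 431).

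ITGA1, a receptor for collagen and laminin, separated the scaffolds from plastic. It had 259, 227 and 236 normalised reads on the smart scaffold, 234, 231, 232 and 212 on the media scaffold, and 66.2 and 92.8 on day 21 plastic. It rose by 1.60 ± 0.35 on the smart scaffold and by 1.52 ± 0.33 on the media scaffold against day 21 plastic (SE, log2 scale, limma adjusted p = 0.000669 and 0.000673). Day 0 plastic held 98.3 to 110.4, also below every scaffold library. The rises against day 0, of 1.21 and 1.13, fell under the fold threshold after rescaling to the same total, at 0.98 and 0.88.

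Laminin receptors use ITGA3, ITGA6 and ITGA7. ITGA3 was lower in all 3 groups of day 21 than on day 0 plastic. On plastic it had 893, 826 and 870.0 normalised reads at day 0, 1017, 1461 and 737 at day 3, and 108 and 182 at day 21. It had 205, 190.0 and 187 on the smart scaffold and 130, 109, 144 and 121 on the media scaffold. All 9 libraries of day 21 lay below all 6 earlier ones. Against day 0, ITGA3 fell by 2.15 ± 0.20 on the smart scaffold, by 2.77 ± 0.19 on the media scaffold and by 2.61 ± 0.23 on plastic (SE, log2 scale, largest limma adjusted p = 7.1e-08).

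ITGA7, the main laminin receptor of muscle fibres, differed between plastic and scaffold at day 21. It had 1588, 1856 and 1807 normalised reads on the smart scaffold, 866, 977, 923 and 1053 on the media scaffold, and only 109 and 155 on day 21 plastic. The 3 groups did not overlap. ITGA7 was higher than on day 21 plastic by 3.74 ± 0.14 on the smart scaffold (limma adjusted p = 2.18e-12) and by 2.87 ± 0.13 on the media scaffold (adjusted p = 4.07e-11). On plastic it was at 553 to 649 at day 0 and 1105 to 1335 at day 3. It rose by 1.01 at day 3 against day 0, a call that ended (0.99, 0.96 and 0.92) without day 0 replicate 2, day 0 replicate 3 or day 3 replicate 2, and fell by 3.19 at day 21 against day 3. Against day 0 the smart scaffold was higher by 1.56, which was called, and the media scaffold by 0.68, which was under the fold threshold.

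ITGA6, the laminin-binding α chain that pairs with β1 or β4, peaked at day 3 on plastic. It had 436, 485 and 438 normalised reads at day 0, 869, 705 and 977 at day 3, and 239 and 189 at day 21. Its fall of 1.98 at day 21 against day 3 held with each library left out in turn, and its fall of 1.09 against day 0 became a difference of -0.92, under the threshold, without day 21 replicate 2. It was at 253 to 277 on the smart and 286 to 329.9 on the media scaffold.

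Other α chains bind proteins with an RGD sequence. ITGA5, the α chain of the fibronectin receptor, had group means of 1915 ± 30.7 normalised reads on the smart scaffold (SD, n = 3) and 1318 ± 153 on the media scaffold (SD, n = 4), and on plastic 2427 at day 0, 3011 at day 3 and 1797 at day 21. It was called in 0 of the 8 comparisons. After rescaling to the same total it was called lower at day 21 than at day 3 on plastic and on the media scaffold than at day 0, the last also after quantile normalization. ITGAV, the common α chain of the vitronectin receptors, had 21.8 to 39.0 normalised reads on the smart scaffold, 18.9 to 33.2 on the media scaffold, and 11.1 to 27.5 over the plastic libraries. Its single call, 1.01 higher on the smart scaffold than at day 0, ended without smart scaffold replicate 1 or 2, without day 0 replicate 1 or 3, and under pseudocount 4, rescaling or quantile normalization, with values of 0.79 to 0.99.

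ITGA8, an RGD receptor of smooth muscle and mesenchyme, was highest on late plastic. It had 124 and 168 normalised reads on day 21 plastic against 28.6 to 48.5 in the 6 earlier plastic libraries, a rise of 1.90 over day 0 (SE 0.28, limma adjusted p = 1.24e-05). The scaffolds held 61.1, 73.8 and 62.1 (smart) and 32.0, 68.7, 55.1 and 54.3 (media), with log2 differences from day 21 plastic of -1.13 and -1.5, both called. The difference for the smart scaffold was -0.92, under the threshold, without day 21 plastic replicate 2.

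ITGA9, a receptor for tenascin, osteopontin and VCAM1, was close to absent early and present late. It had 0.703, 0.533 and 1.58 normalised reads on plastic at day 0, and 1 read in the whole of day 3. At day 21 it had 19.8, 19.1 and 20.7 on the smart scaffold, 37.8, 45.8, 30.0 and 36.5 on the media scaffold, and 24.8 and 6.87 on plastic. Every library of day 21 was above every earlier library. Its log2 rises over day 0 were 3.46 on the smart scaffold, 4.33 on the media scaffold and 2.92 on plastic (largest limma adjusted p = 2.46e-05). The 1.42 by which the media scaffold exceeded day 21 plastic became 0.56, not called, without plastic replicate 2. ITGAE, which pairs with β7 on intraepithelial lymphocytes, fell by 1.72 on day 21 plastic to 30.4 and 10.3 normalised reads, against 54.9 to 64.7 at day 0. The value of that fall was -0.99, under the threshold, without day 21 replicate 2. Its rises of 1.26 (smart) and 1.31 (media) over day 21 plastic became 0.52 and 0.57, not called, without the same library. Neither rise of ITGAE was called by edgeR or DESeq2. Its fall of 1.04 at day 3 was not called without replicate 1, 2 or 3 of day 0 or replicate 1 or 3 of day 3.

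Among β chains the widest range of group means was that of ITGB5, which pairs with αV to bind vitronectin. It had 316, 353 and 338 normalised reads on plastic at day 0, 1760, 1677 and 1168 at day 3, and 4002 and 4749 at day 21. It had 8825, 9298 and 9678 on the smart scaffold and 9776, 8720, 9219 and 9144 on the media scaffold. The times on plastic and the scaffolds together formed 4 levels with no overlap, and the 2 scaffold groups overlapped. ITGB5 rose by 2.17 ± 0.13 at day 3 and by 3.70 ± 0.14 at day 21 on plastic, by 4.78 ± 0.13 on the smart scaffold and by 4.78 ± 0.12 on the media scaffold, all against day 0 (SE, log2 scale, largest limma adjusted p = 9.16e-10). Its rises of 1.09 and 1.08 over day 21 plastic were just past the fold threshold and became 0.96 on both scaffolds without plastic replicate 1.

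ITGB3, the other common partner of αV, fell with time on plastic and was higher on both scaffolds than on day 21 plastic. It had 646, 767 and 782 normalised reads on the smart scaffold, 577, 632, 582 and 603 on the media scaffold, and 137 and 117 on day 21 plastic. Every scaffold library was above every plastic library, of which the day 0 libraries were at 322 to 341 and those of day 3 at 199 to 243. The log2 differences from day 21 plastic were 2.52 ± 0.12 (smart) and 2.23 ± 0.11 (media), and plastic itself fell by 1.37 ± 0.12 by day 21 against day 0 (SE, largest limma adjusted p = 2.35e-08). Against day 0 plastic the media scaffold was 0.86 higher, which was not called, and the smart scaffold rise of 1.15 was 0.92, under the threshold, after rescaling to the same total.

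ITGB4, the β chain of hemidesmosomes, had 11 and 6.87 normalised reads on day 21 plastic. It had 34.7, 46.0 and 43.7 on the smart scaffold, 40.2, 22.9, 26.7 and 41.5 on the media scaffold, and 43.6 to 86.9 on plastic before. Both day 21 plastic libraries were below all others, and ITGB4 fell by 2.49 ± 0.31 there against day 0 (SE, limma adjusted p = 1.31e-06). The scaffolds were higher than day 21 plastic by 2.11 and 1.75.

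ITGB7, a leukocyte chain that pairs with α4 or αE, was high on plastic from day 3. It had 6.60, 9.54 and 5.75 normalised reads on the smart scaffold and 4.92, 4.97, 1.62 and 6.91 on the media scaffold. On plastic it had 4.92, 8.00 and 7.5 at day 0, 33.7, 44.3 and 32.1 at day 3, and 41.4 and 48.1 at day 21. It rose by 2.28 and 2.57 on plastic at day 3 and day 21 and its differences from day 21 plastic were -2.49 on the smart and -3.13 on the media scaffold (largest limma adjusted p = 0.000158). Markers of blood and immune cells were looked up as well, and not all of them followed ITGB7. Of 12 such markers 5 were in the table (CD68, LAPTM5, CD34, CSF1R and CD14), and their sum was 24.1 to 30.4 on the smart scaffold, 22.2 to 30.8 on the media scaffold, and on plastic 26.8 to 30.2 at day 0, 28.6 to 79.5 at day 3 and 130 to 182 at day 21. CD34 was at 0 in the libraries of day 0. LAPTM5, CD34, CSF1R and CD14 had their highest group mean on day 21 plastic. CD68 had group means of 16.3, 14.7 and 16.2 on plastic at day 0, day 3 and day 21. CSF1R was at 16.5 on the smart and 17.6 on the media scaffold, above its 9.39 at day 0. The part of such cells in the ITGB7 values was not tested.

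ITGB1, the partner of most of the α chains above, was called in 0 of the 8 comparisons. It had 12500 to 15730 normalised reads on the smart scaffold, 9597 to 12500 on the media scaffold, and on plastic 9505 to 9785 at day 0, 7941 to 16120 at day 3 and 11930 to 15590 at day 21. Its largest log2 difference between groups was 0.56. ITGB8, which pairs with αV and activates latent TGFβ, was below 16.2 normalised reads in every library. It fell by 1.03 at day 3, which was not called without replicate 1, 2 or 3 of day 0 or replicate 1 or 2 of day 3. It fell by 1.22 at day 21, which was -0.92 and not called without day 21 replicate 1.

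**Figure D2:**
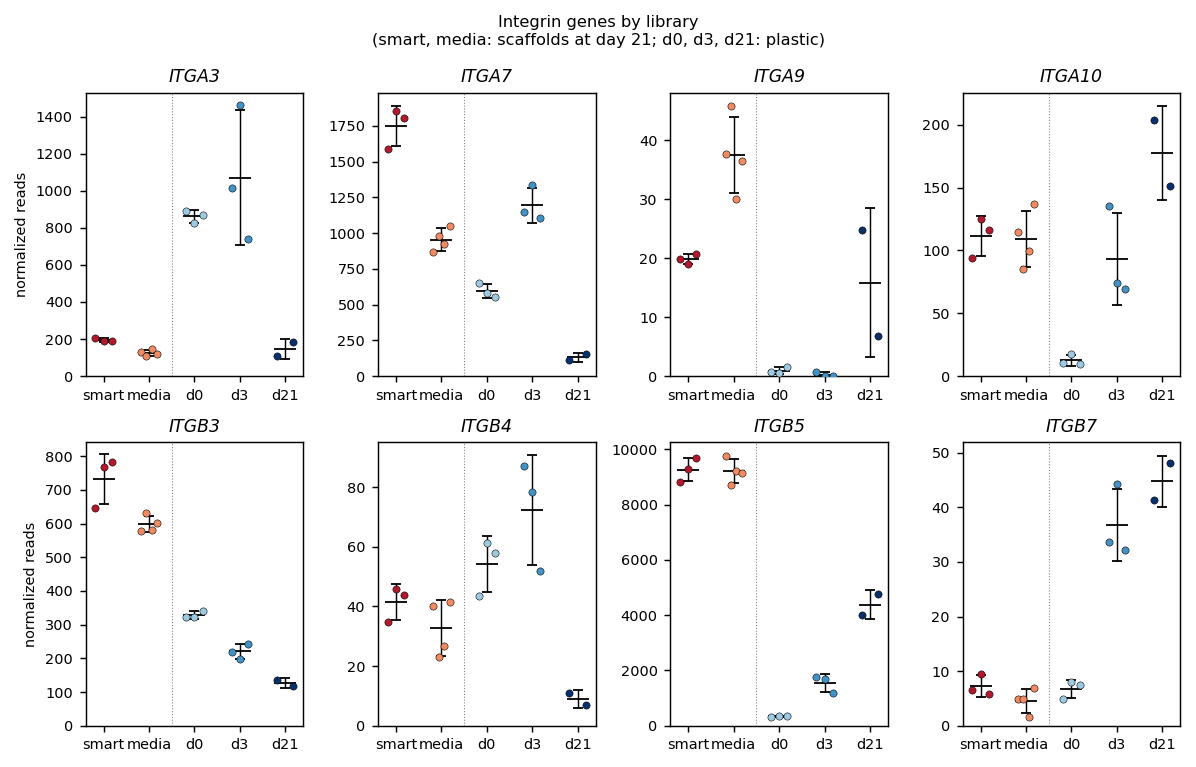
Normalised reads of selected integrin chains in each library (points) with the group mean (line) and SD (error bars), for smart and media scaffold at day 21 and then plastic at day 0, day 3 and day 21; each panel has its own linear axis from 0. ITGB5 has 8720 to 9776 on the scaffolds against 316 to 353 on day 0 plastic, ITGA3 is low in all groups of day 21, and ITGA7 and ITGB3 are low on day 21 plastic alone among the day 21 groups.

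Of the 6 tested cadherins, 5 rose and 1 fell on plastic at day 21 against day 0 (21.2% and 24.1% of all genes). After rescaling or quantile normalization these counts were 4 and 1. Over all genes 2320 rose and 2636 fell, with 1802 and 3287 after rescaling and 2274 and 2563 after quantile normalization. The 5 cadherins that rose include CDH11, whose rise was at the threshold, and CDH17, which passed the minimum mean through day 21 plastic. The one that fell was CDH2, N-cadherin, which joins mesenchymal cells and myoblasts. It had 717, 677 and 758 normalised reads on plastic at day 0, 847, 674 and 1051 at day 3, and 139 and 85.9 at day 21. It had 102, 98.9 and 112 on the smart scaffold and 91.1, 77.6, 72.9 and 87.9 on the media scaffold. All libraries of day 21 were below all earlier ones. Against day 0, CDH2 fell by 2.77 ± 0.17 on the smart scaffold, by 3.11 ± 0.16 on the media scaffold and by 2.70 ± 0.19 on plastic (SE, log2 scale, largest limma adjusted p = 1.55e-09).

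CDH11, the OB-cadherin of fibroblasts and bone-forming cells, was highest on the scaffolds. It had 4180, 4062 and 4832 normalised reads on the smart scaffold, 4585, 4633, 4804 and 4600 on the media scaffold, and 1310 and 735 on day 21 plastic. Every scaffold library was above every plastic one, the day 0 libraries being at 471 to 500.2 and those of day 3 at 545 to 821. The log2 differences from day 21 plastic were 2.14 ± 0.18 for the smart and 2.24 ± 0.18 for the media scaffold (SE, limma adjusted p = 3.52e-08 and 1.21e-08). On plastic the rise over day 0 was 1.00, at the threshold, and it was 0.59 without day 21 replicate 1, 0.97 without day 0 replicate 3 and 0.74 after rescaling to the same total.

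CDH13, or T-cadherin, is held in the membrane by a lipid anchor and binds adiponectin. It was higher in all day 21 groups than on day 0 plastic, with 5737, 5657 and 4394 normalised reads on the smart scaffold, 5975 to 6442 on the media scaffold and 2469 and 4075 on plastic, against 924 to 1221 at day 0. The log2 rises were 2.24 ± 0.18, 2.5 ± 0.17 and 1.52 ± 0.20 (SE, largest limma adjusted p = 4.02e-06). CDH3, or P-cadherin, an epithelial and myoepithelial cadherin, was higher in the same 3 groups. It had 163, 251 and 223 on the smart scaffold, 163, 154, 149 and 215 on the media scaffold and 144 and 155 on day 21 plastic, against 16.2, 14.9 and 19.7 at day 0. Its rises over day 0 were 3.56 ± 0.19, 3.25 ± 0.18 and 3.07 ± 0.22 (SE, largest limma adjusted p = 1.36e-09), with day 3 still at 19.5 to 26.2.

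CDH24, a classical type II cadherin that binds catenins, marked late plastic. It had 388 and 498 normalised reads on day 21 plastic, against 73.1 to 106 at day 0 and 102 to 199 at day 3. It had 54.5, 52.9 and 43.7 on the smart scaffold and 72.2, 78.6, 60.7 and 68.1 on the media scaffold. Each scaffold group was lower than day 21 plastic with no overlap, and the log2 differences were -3.11 ± 0.24 (smart) and -2.64 ± 0.23 (media) (SE, limma adjusted p = 9.41e-09 and 3.4e-08). CDH17, an intestinal and liver cadherin, had at most 24.8 normalised reads, which it reached on day 21 plastic. Its rise of 2.17 there against day 3 was not called without day 3 replicate 3 (1.04) or day 21 replicate 2 (2.42). That call also ended with pseudocount 0.5, after rescaling, with the compared groups alone, with the replicate block and by DESeq2.

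Protocadherins are a larger family with weaker adhesion. PCDH7 was higher in all 3 groups of day 21 than on day 0 plastic, with 149 to 208 normalised reads on the smart scaffold, 162 to 171 on the media scaffold and 117 and 99.7 on plastic, against 43.2 to 51.7 at day 0. The log2 rises were 1.96 ± 0.16, 1.82 ± 0.15 and 1.2 ± 0.17, of which that on plastic was 0.94 after rescaling to the same total. PCDH18 was lower on both scaffolds than on day 21 plastic. It had 57.8, 80.7 and 67.8 on the smart scaffold, 81.3, 76.6, 88.3 and 72.1 on the media scaffold, and 243 and 234 on day 21 plastic, with log2 differences of -1.79 ± 0.19 and -1.57 ± 0.18 (SE, limma adjusted p = 4.06e-07 and 1.02e-06).

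PCDHGA8, of the γ cluster, had 203 to 211 normalised reads on the smart scaffold, 188 to 221 on the media scaffold, and on plastic 95.6 to 111 at day 0, 132 to 209 at day 3 and 347 to 395 at day 21. It rose by 1.85 ± 0.17 on plastic at day 21 (SE, limma adjusted p = 3.22e-08). In human and mouse the genes of such a cluster share their 3′ exons, so values counted at 3′ ends are uncertain for PCDHGA8, PCDHGA3 and PCDHAC2. PCDHGA3 had at most 20.6 normalised reads. PCDH1 stayed below 21.5 normalised reads. It was higher on both scaffolds than on day 21 plastic, which held 3 reads of it, with ratios of 6.18 (95% counting interval 1.99 to 31) on the smart and 4.47 (1.46 to 22.3) on the media scaffold, and neither difference was called without plastic replicate 1.

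Of the 14 focal adhesion genes, 4 rose and 3 fell on plastic at day 21 against day 0, or 28.6% and 21.4% (21.2% and 24.1% of all genes). The Cas proteins, which dock signalling enzymes, were low on late plastic. NEDD9, a Cas protein that focal adhesion kinase phosphorylates, had 986, 1111 and 977 normalised reads on the smart scaffold, 948, 939, 897 and 1015 on the media scaffold, and 35.9 and 30.9 on day 21 plastic. Day 0 and day 3 plastic lay between, at 205 to 218 and 210.3 to 273, with no overlap on either side. NEDD9 was higher than on day 21 plastic by 4.90 ± 0.13 on the smart and 4.79 ± 0.12 on the media scaffold (SE, log2 scale, limma adjusted p = 3.33e-14 and 1.37e-14), and on plastic it fell by 2.64 ± 0.13 against day 0. BCAR1, the founding Cas protein, fell on plastic as well, to 493 and 227 at day 21 against 1195 to 1363 at day 0. On the scaffolds at day 21 it was at 1293 to 1449 (smart) and 1068 to 1244 (media). Both were higher than day 21 plastic, by 2.03 ± 0.21 and 1.80 ± 0.20 (SE, limma adjusted p = 2.35e-07 and 5.54e-07).

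Talin 1, encoded by TLN1, joins the β tail to actin and did the reverse. It had 8620 and 10350 normalised reads on day 21 plastic, against 2825, 3061 and 3129 at day 0, a rise of 1.65 ± 0.12 (SE, log2 scale, limma adjusted p = 2.28e-09). On the scaffolds it was at 3021, 2905 and 2767 (smart) and 3496, 3266, 3659 and 2931 (media), which overlapped day 3 plastic at 2813 to 3523. The scaffolds differed from day 21 plastic by -1.71 ± 0.12 and -1.51 ± 0.12 (SE, limma adjusted p = 3.91e-09 and 9.72e-09). TLN2, the talin of muscle and brain, stayed below 20 normalised reads. It rose by 2.40 at day 3 on plastic, with 17.5, 17.1 and 12.5 against 0.703, 2.13 and 4.74 at day 0. Its rise of 1.46 at day 21 was not called without day 0 replicate 1 or day 21 replicate 2. That rise was also not called with pseudocount 4, by edgeR or by DESeq2. The scaffolds held 6.94 to 13.2 (smart) and 8.88 to 19.9 (media), higher than day 0 by 1.79 and 2.17.

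LPP, a zyxin relative that is abundant in smooth muscle, had 181 and 368 normalised reads on day 21 plastic. It had 13.2, 34.7 and 51.7 on the smart scaffold, 35.3, 36.8, 28.4 and 36.5 on the media scaffold, and 53.7 to 61.9 at day 0. It was lower on the scaffolds, with log2 differences from day 21 plastic of -3.11 ± 0.43 (smart) and -2.88 ± 0.41 (media) (SE, limma adjusted p = 7.67e-06 and 9.85e-06). The day 21 rise on plastic was 2.15 over day 0, and that over day 3, of 1.54, was not called without day 21 replicate 2 (1.03).

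Tensin 1, from TNS1, binds the β tail and actin in long-lived adhesions, and it had the largest rise of the focal adhesion genes on plastic. It had 598, 626 and 627 normalised reads at day 0, 1892, 1961 and 1710 at day 3, and 9895 and 10720 at day 21. The smart scaffold had 5393, 5698 and 5314 and the media scaffold 6066, 6109, 6096 and 6738. The levels of the 3 times on plastic and of each scaffold group did not overlap. TNS1 rose over day 0 by 3.14 ± 0.08 on the smart scaffold, by 3.34 ± 0.08 on the media scaffold and by 4.06 ± 0.09 on plastic (SE, largest limma adjusted p = 4.58e-15). Its differences from day 21 plastic were -0.91 (smart) and -0.72 (media), under the fold threshold. PXN, or paxillin, a docking protein for signalling enzymes, fell to 261 and 162 on day 21 plastic, against 476 to 525 at day 0, and it fell by 1.27, a value that was -0.92 without day 21 replicate 2.

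Several linkers and enzymes that form the body of the adhesion held no call. VCL (vinculin), ZYX (zyxin), PARVA (α-parvin), ILK (integrin-linked kinase), PTK2 (focal adhesion kinase) and TNS3 (a second tensin) were called in 0 of the 8 comparisons, as were ITGB1 and ITGA5, which makes 8 of the 42, or 19%, against 34% of all tested genes. PTK2 had 401 to 419.5 normalised reads on the smart scaffold, 376 to 435 on the media scaffold, and 340.2 to 579 over the plastic libraries, and its largest log2 difference was -0.38, at day 21 against day 3 on plastic. VCL had 4725 to 5775 on the smart scaffold, 4195 to 4969 on the media scaffold and 2484 to 5143 on plastic. TNS3 had at most 14.8 normalised reads in any library and 8 reads in all on day 21 plastic, so its lack of a call says little. A call needs a log2 change of 1, and smaller changes were past the adjusted p threshold for some of these genes. ILK was 0.99 and PARVA 0.90 above day 0 in their widest comparisons, on day 21 plastic and the smart scaffold. ILK was called higher on day 21 plastic than at day 0 without day 0 replicate 3 or day 21 replicate 1, VCL higher on the smart scaffold than on plastic without plastic replicate 1, and TNS3 lower on the media scaffold than at day 0 after rescaling and by edgeR. FERMT2 (kindlin 2) was called once, with 3040 and 3708 normalised reads on day 21 plastic against 1435, 1400 and 2312 at day 3, a rise of 1.01. It was 0.87 to 0.90 without day 3 replicate 1 or 2 or day 21 replicate 2. The FERMT2 rise was also under the threshold after rescaling (0.68) and quantile normalization (0.81), and by edgeR (0.80) and DESeq2 (0.85).

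**Figure D3:**
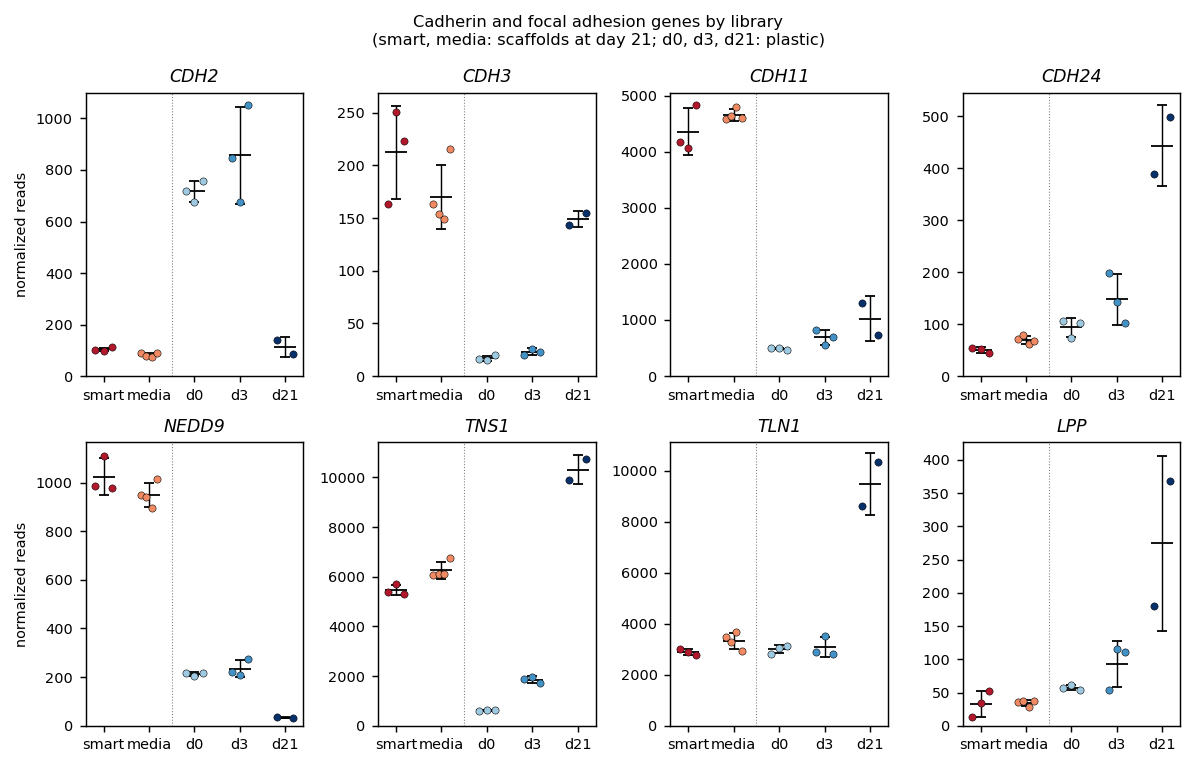
Normalised reads of selected cadherins and focal adhesion genes in each library (points) with the group mean (line) and SD (error bars), for smart and media scaffold at day 21 and then plastic at day 0, day 3 and day 21; each panel has its own linear axis from 0. CDH11 and NEDD9 are highest in the scaffold libraries, TLN1 and TNS1 in the day 21 plastic libraries, and CDH2 is low in all libraries of day 21.

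**Figure D4:**
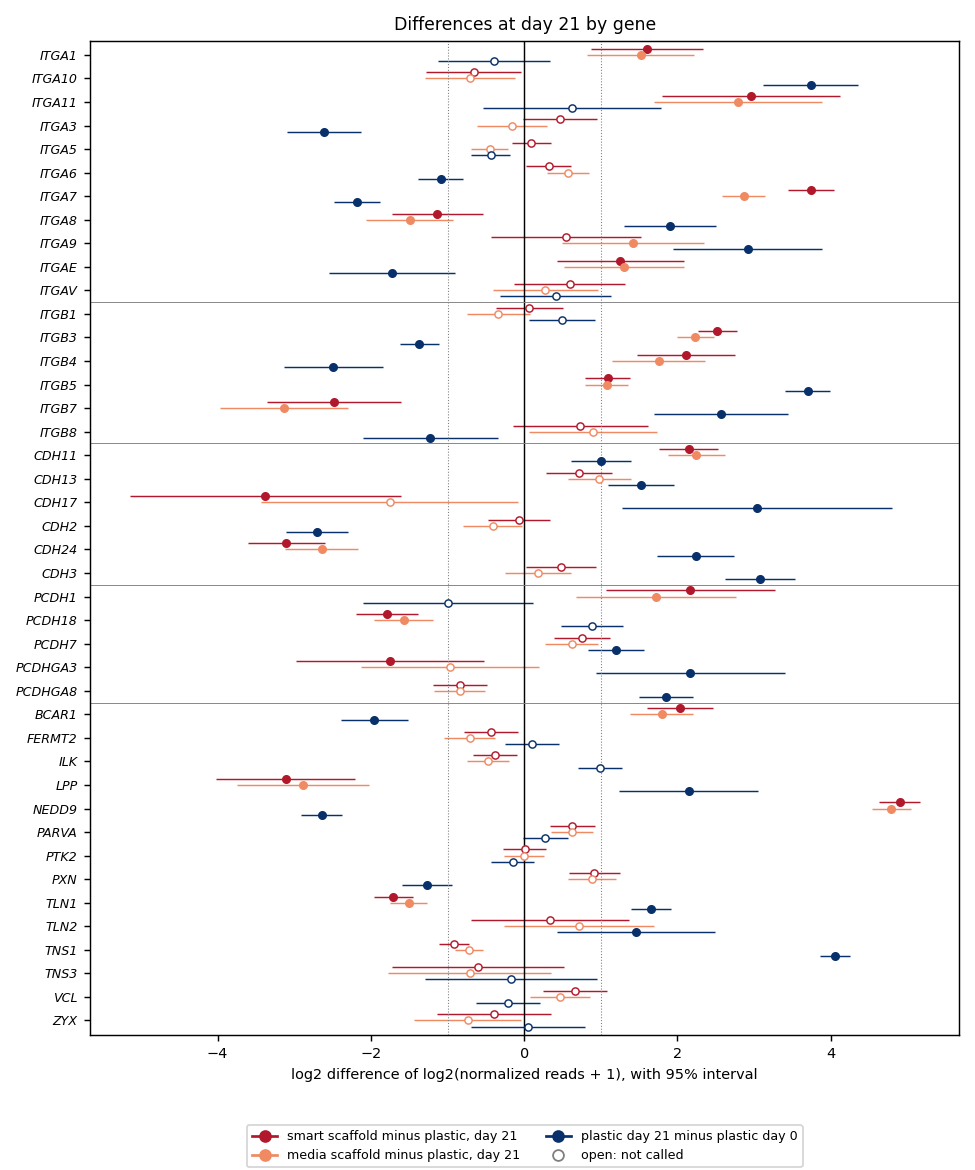
Log2 differences (points, with 95% intervals from limma) of the tested genes for smart scaffold minus plastic and media scaffold minus plastic at day 21 and for plastic at day 21 minus day 0. The contrasts share the 2 plastic libraries of day 21, so a mirrored look is partly built in; NEDD9 lies at 4.90 and 4.79 for the scaffolds and -2.64 for plastic.

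Whether the growth factors were attached to the scaffold or dissolved in the medium was tested between the 2 scaffold groups. Among the 42 genes the log2 differences ran from -1.63 to 0.87, and 11 had an unadjusted p under 0.05 (6 higher and 5 lower on the smart scaffold). An adjusted p under 0.05 remained for ITGA7 and ITGA5. ITGA7, with 1588, 1856 and 1807 normalised reads on the smart and 866, 977, 923 and 1053 on the media scaffold, was higher by 0.87 ± 0.12 (SE, limma adjusted p = 0.000489). ITGA5, with 1882, 1920 and 1943 on the smart and 1363, 1132, 1279 and 1498 on the media scaffold, was higher by 0.55 ± 0.10 (SE, limma adjusted p = 0.00754). Neither pair of groups overlapped, and both differences kept an adjusted p under 0.05 under all 17 alternatives. edgeR and DESeq2 on the recovered reads also called 0 of the 42. The 95% interval of the difference lay within 1 on the log2 scale either way for 32 of the 42 and reached past it for 10, so for those 10 a change past the fold threshold cannot be set aside at this depth. CDH17, at 0 to 2.30 on the smart and 2.98 to 9.72 normalised reads on the media scaffold, had the lowest value.

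**Figure D5:**
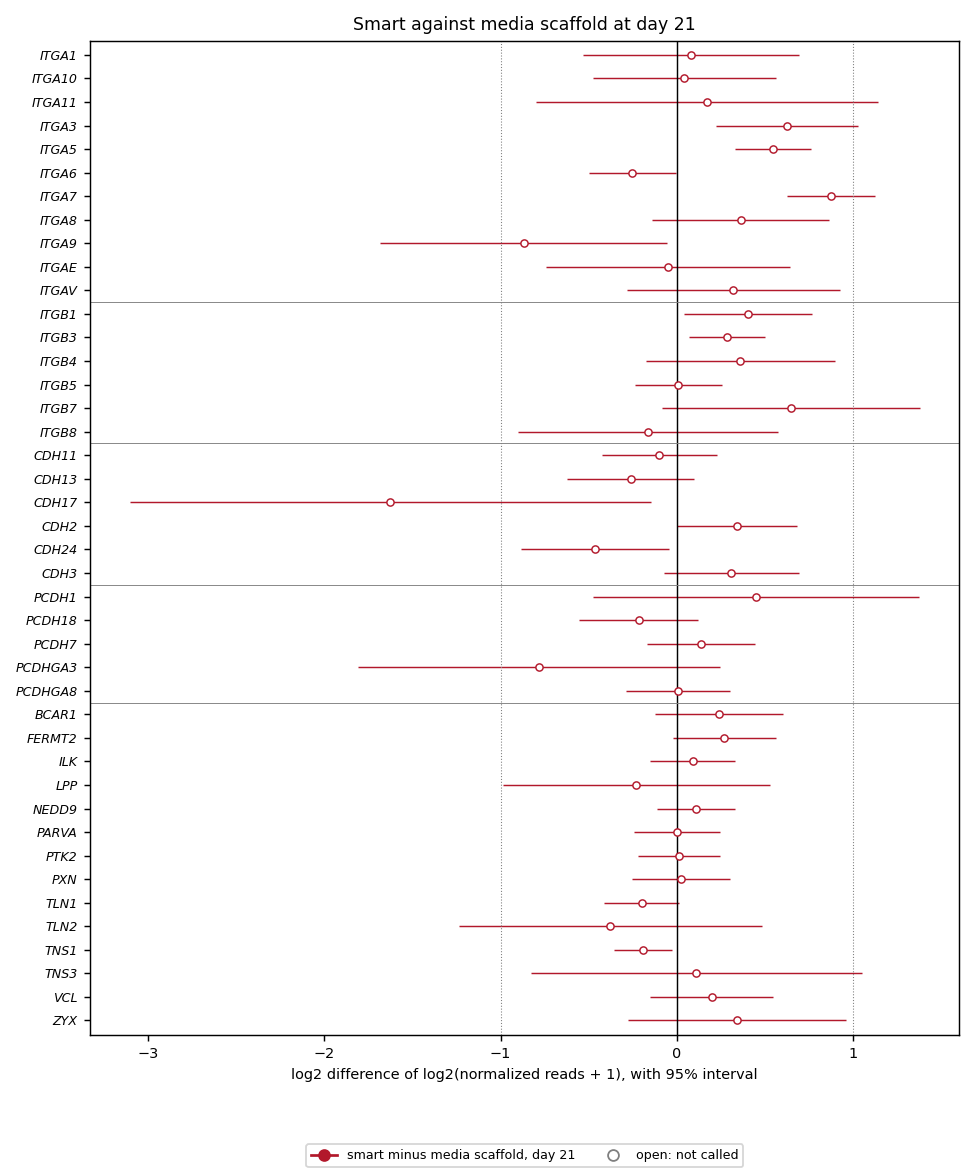
Log2 difference of smart minus media scaffold at day 21 for each tested gene (points, with 95% intervals from limma). All points lie between -1.63 and 0.87, with ITGA7 at 0.87 and ITGA5 at 0.55 as the only genes with an adjusted p under 0.05.

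The partners of these genes were taken from 3 lists. Of 52 integrin ligand genes, which include several collagen and laminin chains, 33 were tested. On day 21 plastic 20 rose and 4 fell against day 0, where 21.2% and 24.1% of all genes did. On the smart scaffold 19 rose and 2 fell against day 0 plastic (16.5% and 14.1% of all genes), and on the media scaffold 22 rose and 3 fell (17.5% and 14.9% of all genes). The rises were 60.6% of the list on day 21 plastic, 57.6% on the smart scaffold and 66.7% on the media scaffold. VCAM1, a ligand of α4 and α9 integrins, reached 180 ± 94.5 normalised reads on day 21 plastic (SD, n = 2), against 0.487 ± 0.539 at day 0 (SD, n = 3). EDIL3, an RGD protein bound by αV integrins, reached 171 ± 26.1 on the smart scaffold (SD, n = 3) and 143 ± 7.08 on the media scaffold (SD, n = 4), against 2.19 ± 0.916 at day 0. On plastic EDIL3 also rose, to 20.4 ± 4.60 at day 3 (SD, n = 3) and 126 ± 79.0 at day 21 (SD, n = 2). SPP1 (osteopontin) fell to 826 ± 276 on day 21 plastic, against 6794 ± 480 at day 0. THBS1 (thrombospondin 1) fell to 2287 ± 995 on day 21 plastic, against 7727 ± 999 at day 0, and was 32040 ± 1152 on the smart and 24950 ± 2166 on the media scaffold. LAMA4, a laminin chain of vessel and muscle basement membranes, reached 5333 ± 618 on day 21 plastic, against 286 ± 16.8 at day 0. Between smart and media scaffold TGFBI rose and FBLN1 and VCAM1 fell, with VCAM1 at 14.9 ± 2.41 on the smart and 68.1 ± 10.0 on the media scaffold.

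Of 82 other adaptors, kinases and actin linkers of focal adhesions 70 were tested. On day 21 plastic 16 rose and 13 fell against day 0, or 22.9% and 18.6% of the list (21.2% and 24.1% of all genes). That split became 12 and 16 after rescaling to the same total, which gave 1802 higher and 3287 lower over all genes. At day 21, 14 were higher and 9 lower on the smart scaffold than on plastic, and 13 were higher and 11 lower on the media scaffold. The higher ones were 20% and 18.6% of the list, close to the 21.4% and 20.8% of all genes. RAP1B, a small GTPase that brings talin to integrins, had 978 ± 81.9 normalised reads on the smart scaffold and 877 ± 48.5 on the media scaffold. On plastic RAP1B had 461 ± 25.6 at day 0, 473 ± 115 at day 3 and 86.1 ± 34.3 at day 21, a called fall. SVIL (supervillin), an actin linker, had 289 ± 29.0 on the smart scaffold, 386 ± 15.1 on the media scaffold and 209 ± 23 on day 21 plastic, all called higher than the 23.4 ± 1.54 of day 0 plastic. KANK4, from a family that binds talin, had 0 reads on the smart scaffold and 1.56 ± 0.418 normalised reads on the media scaffold, the one gene of this list called between them (limma adjusted p = 0.0439). No gene of the list was called between the scaffolds after rescaling or quantile normalization.

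Of 54 cadherin partners 28 were tested, and 6 rose and 6 fell on day 21 plastic against day 0. After rescaling these counts were 5 and 12, with 1802 higher and 3287 lower over all genes. Each of the first counts is 21.4% of the list, close to the 21.2% higher and 24.1% lower of all genes. CTNNB1 (β-catenin), which links cadherins to α-catenin, had 2925 ± 395 normalised reads on the smart scaffold and 2292 ± 166 on the media scaffold, against 579 ± 139 on day 21 plastic. NECTIN1, an immunoglobulin-type adhesion receptor of cadherin junctions, had 112 ± 3.75 on the smart scaffold and 54.6 ± 8.82 on the media scaffold. On plastic NECTIN1 had 79.7 ± 5.40 at day 0 and 16.9 ± 0.439 at day 21, a called fall. It was higher on the smart than on the media scaffold by 1.03 ± 0.18 (SE, log2 scale, limma adjusted p = 0.00508), the one cadherin partner called between the scaffolds. CTNNAL1, an α-catenin relative, had 345 ± 23.7 on the smart scaffold, 336 ± 8.21 on the media scaffold and 170 ± 2.92 on day 21 plastic, all called lower than the 946 ± 41.1 of day 0 plastic.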

How the data were processed

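The 15 libraries that matched the labels (of 17 in 6 groups) were used, and 2 value columns matched no sample and were not used. The deposited values are a normalized signal per gene, read counts that the authors divided by 1 factor per library, and the submitters' processing notes name cutadapt, STAR, HTSeq, DESeq and the build ARS-UCD1.2. Versions, strand and use of molecular identifiers are not given in the sources used here. Overlapping and antisense genes may therefore share reads. Each library's step gave whole reads for 100% of its values within 0.1.

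A limma fit (version 3.58.1, R 4.3.3) of log2(value + 1), with trend and robust variance, covered all 5 groups. This scale understates changes of genes with few reads. The 10960 genes with a mean of at least 5 were tested, two-sided, with Benjamini-Hochberg adjustment within each comparison. The genes, the partner and marker lists and the comparisons were chosen with earlier results of these data known. Every gene the rule takes may be named. Full values were meant for the 5 strongest calls in each direction of a comparison with no overlap between libraries, which were 24 genes in 62 gene and comparison pairs, and other genes are given by value where their role is described. For the partner lists the 3 strongest calls in each direction could be named. Counts against floors of 3 reads and exact 95% intervals cover counting error only.

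Alternatives were rescaling to the same total, pseudocounts of 0.5 and 4, a minimum mean of 20, no filter, quantile normalization, the compared groups alone, a replicate block, each library left out, and edgeR 4.0.16 and DESeq2 1.42.0 on recovered reads of 13 libraries. edgeR called from 6 genes higher and 92 lower (smart against media scaffold) to 2249 higher and 2590 lower (day 21 against day 0 on plastic). Tested on simulated reads of 10960 genes, the fit recovered 77% (day 21 against day 0 on plastic) to 92% (smart against media scaffold) of 3-fold changes and 93% to 97% of 6-fold changes over the comparisons, and it called 1 to 23 unchanged genes.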

Additional observations from a re-analysis of the deposited data

Results flagged for a closer look

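In a group of 4 libraries, a library was singled out when its gap to the nearest other library exceeded Dixon's 95% critical value for the group's range, which chance alone gives in about 1 in 20 groups. The media scaffold is the only group of that size, and 3 of its 42 genes met this. ITGA1 had 212 normalised reads in replicate 4, against 231 to 234 in the others. PARVA had 2335 in replicate 2, against 2398 to 2408 in the others. TNS1 had 6738 in replicate 4, against 6066 to 6109 in the others.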

How the results depend on the processing

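Over 133 called or named gene and comparison pairs, 2026 recomputed values gave 1901 with the direction and the call kept, 125 with the call lost, in 34 of the pairs, and 0 reversed. The count of genes lower at day 3 than at day 0 on plastic was 3 and became 1 with pseudocount 4, with the replicate block, with a minimum mean of 20 and after rescaling to the same total, and 1 to 3 when single libraries were left out. Rescaling also changed the count higher at day 21 than at day 3 on plastic from 14 to 9, the count lower on the media scaffold than at day 0 from 2 to 4, and the smart scaffold counts against day 0 from 17 higher and 2 lower to 11 and 5. The minimum mean of 20 changed the count lower on the smart scaffold than on day 21 plastic from 8 to 5. Single libraries left out gave 2 to 4 lower on the smart scaffold against day 0. The cause was not tested, except that a higher minimum tests fewer genes. Of 26 pairs of libraries with the same number, 2 had deviations correlated above 0.1 and 4 of 15 libraries matched their own number best, so the numbers were not taken as pairs. ITGA11, CDH17, ITGA9, ITGB7, ITGB8, PCDH1, PCDHGA3 and TLN2 fell under the minimum mean under some of the alternatives, such as the minimum mean of 20. They then gave no value, and calls that ended in this way are not among the 125. Among all genes rescaling moved the share of calls that were higher from 46.8% to 35.4% at day 21 against day 0 on plastic, from 44.5% to 27.1% against day 3, and from 53.9% to 39.3% on each scaffold against day 0. Some calls said above to end without single libraries also ended by DESeq2. Among them were ITGA7 at day 3, ITGB8 at day 3 and day 21, and ITGA9 on the media scaffold against day 21 plastic. The 2 day 21 plastic libraries are the shallowest group and limit genes with few reads.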
